A study of Mus musculus with 7 samples.

Results

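In unstimulated dendritic cells lacking RelB, a RelB antibody still gathered reads over 7453 of the 93611 regions of the study (7.96%). These residual regions were chosen by RPKM, the reads per kilobase of region scaled to the library's total: they had 5 RPKM or more in the RelBko RelB library of 0 h and, after 0.5 RPKM was added to both, 2-fold or more of the input. The RelBko RelB values at 0 h and the input values thus selected them and are given as a description. The RPKM threshold alone was passed by 7707 regions, of which 254 missed the fold over the input. The residual regions held 15 to 734 reads of that library (median 40) and carried the names of 4795 nearest genes, 1518 of them with at least 2 residual regions and 125 with at least 5.

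The question of the study is what RelA binding to DNA looks like once RelB is gone. The groups were RelBko cells with the RelB antibody, untreated at 0 h and 1 h into stimulation by LPS (lipopolysaccharide, 10 ng/mL), RelBko cells with the RelA antibody at 1 h of LPS, the same antibodies and times in wild-type (WT) cells, and input DNA of WT cells, whose time and treatment the labels do not give. All were bone marrow-derived dendritic cells (BMDCs) of C57BL/6 mice, whose marrow was cultured with the cytokines GM-CSF (20 ng/mL) and IL-4 (10 ng/mL). The labels give neither the allele behind RelBko, nor the age or number of the mice, nor whether mice were pooled. Each group held 1 library, so no difference between genotypes or times had a replicate check and no p-value was computed. The intervals given cover the counting of reads or of regions only.

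RelA and RelB are subunits of NF-kB, the transcription factor family that carries signals from Toll-like receptors to inflammatory genes. Both bind kB sites as dimers, RelA mostly with the product of Nfkb1 and RelB mostly with that of Nfkb2, and RelB is best known for its part in the maturation of dendritic cells. In chromatin immunoprecipitation, cells without the target protein serve as the control for an antibody, because reads gathered there do not depend on the intact protein. What gathered the reads in the RelBko cells was not tested. In bulk chromatin, fewer bound cells and less binding per cell cannot be told apart.

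The sequences below show annotated promoter windows at which residual regions are centred, as the sequence of the regions themselves was not read. They are those of the 6 residual promoter regions of highest RelBko RelB signal at 0 h whose gene has a single entry in the RefSeq promoter table (build GRCm38.p6, 250 bases before to 50 after the start) and whose centre falls within that window. Capitals mark a match to a kB motif, GGG followed by any 3 bases and then TTCC, which both marked promoters carry on the strand opposite to the one printed. The other 4 promoters show no such match in this window.
Nfkbia promoter: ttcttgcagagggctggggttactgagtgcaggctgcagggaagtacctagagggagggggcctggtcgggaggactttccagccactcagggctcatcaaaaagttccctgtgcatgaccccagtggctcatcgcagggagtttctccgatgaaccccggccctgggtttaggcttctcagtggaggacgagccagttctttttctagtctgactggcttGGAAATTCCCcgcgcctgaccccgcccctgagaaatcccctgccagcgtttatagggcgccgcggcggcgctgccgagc
Gpbp1 promoter: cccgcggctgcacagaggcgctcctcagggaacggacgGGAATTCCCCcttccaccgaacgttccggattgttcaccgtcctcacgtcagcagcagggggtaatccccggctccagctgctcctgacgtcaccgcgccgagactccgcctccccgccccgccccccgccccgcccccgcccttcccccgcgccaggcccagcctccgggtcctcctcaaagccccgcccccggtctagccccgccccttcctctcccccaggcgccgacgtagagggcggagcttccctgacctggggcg
Tgfb1 promoter: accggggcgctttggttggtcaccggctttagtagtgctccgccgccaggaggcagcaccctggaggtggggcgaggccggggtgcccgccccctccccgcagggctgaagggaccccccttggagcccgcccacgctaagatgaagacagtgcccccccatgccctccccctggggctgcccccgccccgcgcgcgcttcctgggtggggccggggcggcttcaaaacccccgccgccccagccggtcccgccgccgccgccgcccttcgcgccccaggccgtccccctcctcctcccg
Tpt1 promoter: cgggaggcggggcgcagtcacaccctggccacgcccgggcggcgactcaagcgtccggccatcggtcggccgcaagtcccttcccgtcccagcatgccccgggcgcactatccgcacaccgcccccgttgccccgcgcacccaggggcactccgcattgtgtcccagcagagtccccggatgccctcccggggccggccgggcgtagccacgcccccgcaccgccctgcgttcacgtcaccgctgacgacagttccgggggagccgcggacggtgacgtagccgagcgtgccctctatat
Cltc promoter: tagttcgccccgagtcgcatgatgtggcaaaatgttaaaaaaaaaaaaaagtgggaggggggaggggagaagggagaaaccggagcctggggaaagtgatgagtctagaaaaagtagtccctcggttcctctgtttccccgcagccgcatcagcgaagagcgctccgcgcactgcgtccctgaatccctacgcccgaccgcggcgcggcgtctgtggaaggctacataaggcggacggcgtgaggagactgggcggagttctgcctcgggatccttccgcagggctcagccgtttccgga
Slc41a1 promoter: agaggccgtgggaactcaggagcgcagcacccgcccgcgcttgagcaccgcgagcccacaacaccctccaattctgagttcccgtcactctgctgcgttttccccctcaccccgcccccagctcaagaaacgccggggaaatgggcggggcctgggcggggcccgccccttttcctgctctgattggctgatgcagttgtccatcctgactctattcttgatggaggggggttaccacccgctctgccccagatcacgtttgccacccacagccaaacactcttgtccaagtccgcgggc

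Nfkbia encodes IkB alpha, the inhibitor that holds NF-kB in the cytoplasm and is itself an NF-kB target. Its promoter region (mm9 chr12:56593546-56593910, centre 94 bp upstream of the start) had 23.8 RPKM in the RelBko RelB library and 328 RPKM in the WT RelB library at 0 h, 9.84 RPKM in RelBko and 207 RPKM in WT with the same antibody at 1 h, 191 RPKM in RelBko and 190 RPKM in WT with the RelA antibody, and 1.87 RPKM in the input. The RelBko signal was thus 7.26% of the WT signal at 0 h (exact 95% interval of the ratio of reads 6.13 to 8.53%) and 4.75% at 1 h (3.69 to 6.02%), while the RelA signal was nearly equal in both genotypes (log2 ratio 0.01). Gpbp1, a factor that binds GC-rich promoters, has a match to the same motif and 6 GC boxes (GGGCGG on either strand, counted without overlap) in the printed window. There the RelBko cells gave 15.0 RPKM and the WT cells 41.1 RPKM with the RelB antibody at 0 h, so that 36.5% of the WT signal was kept.

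The promoters of Tgfb1 (a cytokine that restrains immune cells), Tpt1 (an abundant growth-related protein), Cltc (the clathrin heavy chain) and Slc41a1 (a magnesium transporter) hold 6, 3, 1 and 5 GC boxes, counted in the same way. At Tgfb1 the RelB antibody gave 16.5 RPKM in RelBko and 47.2 RPKM in WT at 0 h, at Tpt1 16.0 RPKM in RelBko and 57.2 RPKM in WT, at Cltc 16.2 RPKM in RelBko and 97.7 RPKM in WT, and at Slc41a1 14.8 RPKM in RelBko and 66.6 RPKM in WT. RelBko values above 14 RPKM were thus found at promoters with and without a match to the kB motif.

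The libraries held 13188833 to 35064429 reads, recovered from the RPKM values. Of all reads, 1.84% of the RelBko RelB library at 0 h and 0.815% at 1 h lay in the residual regions, against 10.6% and 11.0% in the WT RelB libraries at 0 h and 1 h. The RelA libraries had 10.4% (RelBko) and 10.1% (WT), and the input had 0.389%. Scaled on the regions without enrichment in either library in place of the library total, log2 ratios of RelBko over WT would move up by 0.42 for RelB at 0 h, 0.69 for RelB at 1 h and 0.16 for RelA. The changes below can be read against these shifts.

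Over the residual regions the median signal of the RelB antibody at 0 h was 6.39 RPKM in RelBko cells, close above the threshold, and 30.5 RPKM in WT cells. At 1 h it was 2.83 RPKM in RelBko and 33.9 RPKM in WT. The RelA antibody gave a median of 34.2 RPKM in RelBko and 32.9 RPKM in WT, and the input gave 1.40 RPKM. Residual regions were thus strong regions in both WT RelB libraries and in both RelA libraries. The 86158 other regions had medians of 1.37 RPKM (RelBko RelB 0 h), 4.82 RPKM (WT RelB 0 h), 0.999 RPKM (RelBko RelB 1 h), 5.55 RPKM (WT RelB 1 h), 4.76 RPKM (RelBko RelA), 5.22 RPKM (WT RelA) and 0.884 RPKM (input).

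**Figure D1:**
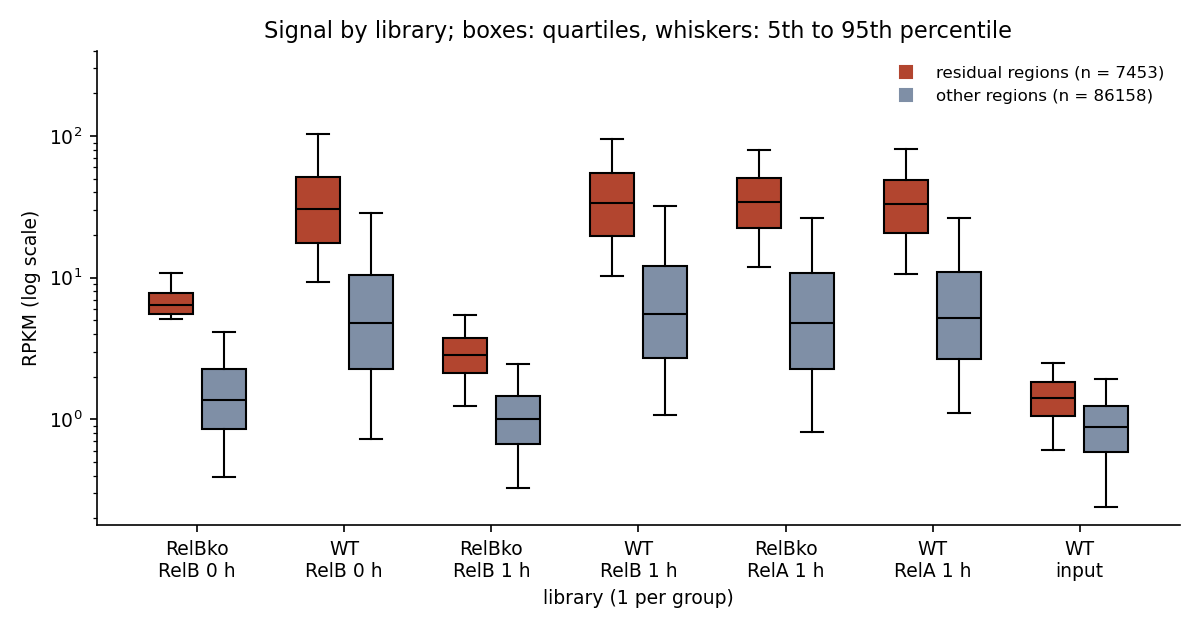
RPKM (log axis) of the 7453 residual regions and the 86158 other regions in each library, with boxes for the quartiles, a line for the median and whiskers for the 5th to 95th percentile over regions, not over replicates. Residual regions had medians of 30.5 to 34.2 RPKM in the 4 libraries of WT RelB and of RelA in either genotype, against 6.39 and 2.83 RPKM in the RelBko RelB libraries at 0 h and 1 h.

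Enrichment in a library was called from 2 RPKM upward where the value was also 2-fold or more of the input. Of the residual regions, 7405 (99.4%) were enriched in WT RelB at 0 h, where 75.9% of all regions were. The counts were 7403 (99.3%) for WT RelB at 1 h beside 81.7% of all regions, 7407 (99.4%) for RelBko RelA beside 75.9%, and 7413 (99.5%) for WT RelA beside 82% of all regions. In the RelBko RelB library at 1 h 2726 residual regions (36.6%) were enriched beside 6.36% of all regions. That library had no part in the choice, but the input used in the enrichment call had. Residual regions were also stronger in WT than other regions, and regions of like signal were not compared for this count. The residual regions enriched at 1 h were 45.8% of the 5957 regions enriched in the RelBko RelB library of that time. The other 4727 residual regions fell short of the enrichment thresholds at 1 h.

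The residual region of highest RelBko signal stood alone. It covers an exon of Mybpc3, which encodes a myosin-binding protein of heart muscle (chr2:90960354-90960681), and held 734 reads or 128 RPKM in the RelBko RelB library at 0 h. The signal there was low in every other library, with 1.22 RPKM in WT RelB at 0 h, 1.09 RPKM in RelBko and 1.82 RPKM in WT with RelB at 1 h, 2.55 RPKM in RelBko and 2.43 RPKM in WT with RelA, and 1.16 RPKM in the input. It was the only residual region over 170 bp with 2-fold or more signal in RelBko than in WT at 0 h, and its cause was not tested. The next region lies in Rn45s, a copy of the ribosomal RNA precursor (chr17:39981007-39981314), where the input itself had 18.0 RPKM, the highest input value of any residual region. Its RelB signal was 50.7 RPKM in RelBko and 164 RPKM in WT at 0 h, and 90.1 RPKM in RelBko and 191 RPKM in WT at 1 h.

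The other 7 of the 9 highest regions followed another pattern, with RelBko RelB values of 17.8 to 23.9 RPKM at 0 h, lower values at 1 h and inputs of 1.06 to 1.87 RPKM. Cuedc1 (intron, chr11:87920915-87921271) had 23.9 RPKM in RelBko and 133 RPKM in WT with RelB at 0 h, 7.47 RPKM in RelBko and 129 RPKM in WT at 1 h, and 154 RPKM in RelBko and 177 RPKM in WT with RelA. A second region at Nfkbia, in an intron 728 bp from the start, had 20.6 RPKM in RelBko and 326 RPKM in WT at 0 h. Mllt10, a cofactor of a histone methyltransferase, kept more of its WT signal, with 22.0 RPKM in RelBko and 61.4 RPKM in WT at 0 h (35.8%, interval 29.6 to 43.1%). Promoter regions of Jak2 (a kinase of cytokine receptors), Etv6 (a repressor of the ETS family) and Skil (a repressor of TGF-beta signalling) completed the 9, keeping 22.0, 13.4 and 21.8% of the WT signal at 0 h. At 1 h those 3 promoters kept 7.63, 4.89 and 8.51%.

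**Figure D2:**
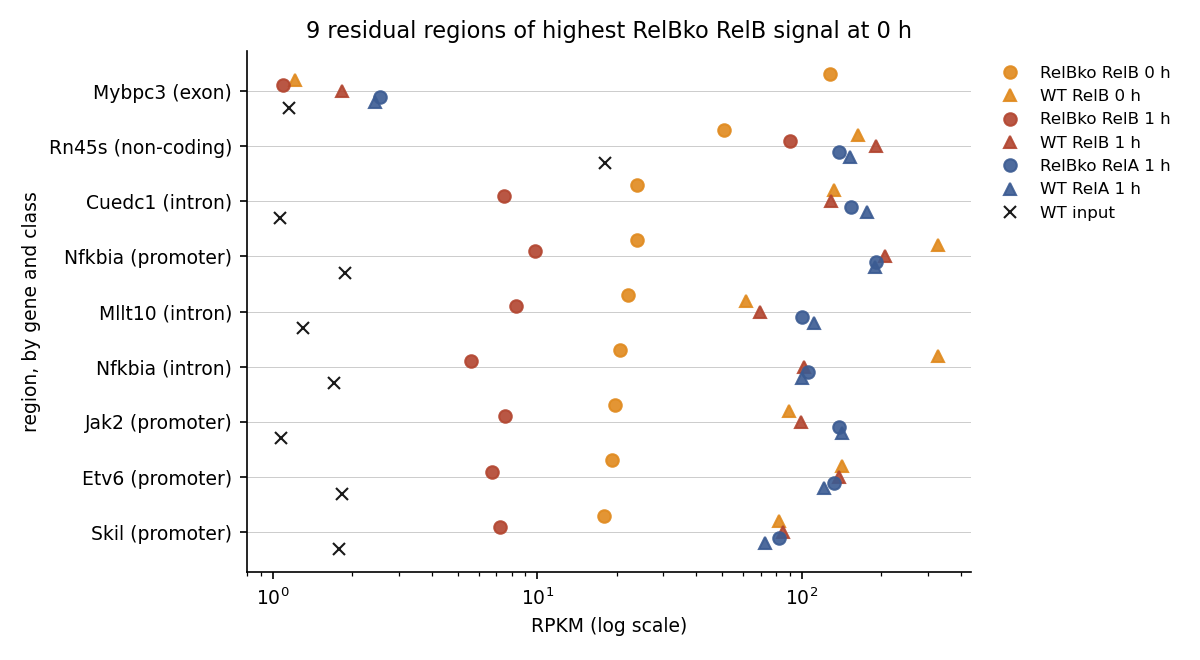
RPKM (log axis) in all 7 libraries for the 9 residual regions of highest RelBko RelB signal at 0 h, named by nearest gene and annotation class, with circles for RelBko, triangles for WT and crosses for the input, set apart within each line so that they can be told from each other. Mybpc3 was high in the RelBko RelB library at 0 h alone (128 RPKM, against 1.09 to 2.55 RPKM elsewhere), Rn45s had the highest input (18.0 RPKM), and at the other 7 regions RelBko RelB lay below both WT RelB values and both RelA values.

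Members near the thresholds were weak but not empty. Just inside 5 RPKM lay regions of Fut8, Scel and Muc20, with 43.8, 32.5 and 37.2 RPKM in WT at 0 h and RelBko values at the threshold itself. Just outside lay promoter regions of Cnot6l, Cluh and Usp53, with 10.9, 11.1 and 16.0 RPKM in WT and RelBko values less than 0.01 RPKM under the threshold. Just inside the 2-fold limit over the input were Ykt6, Ipo8 and Mir467h (5.42, 5.74 and 6.80 RPKM in RelBko, inputs of 2.46, 2.61 and 3.13 RPKM). Just outside it were Abraxas2, Gm6194 and Apon (5.42, 6.81 and 5.38 RPKM in RelBko, inputs of 2.47, 3.16 and 2.45 RPKM).

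The share of the WT RelB signal kept at 0 h, RelBko RPKM as a percentage of WT RPKM, had a median of 21.8% over the residual regions (quartiles 13.5 and 37.2%). The other regions had a median of 27.9%, where the median RelBko value was 1.37 RPKM beside an input of 0.884 RPKM. On the log2 scale with 0.5 RPKM added, 42 residual regions were higher and 6465 of 7453 lower by 2-fold or more in RelBko, and the median was -2.12, a 4.34-fold difference. Of the 71649 regions enriched in either library, 0.504% were higher and 86% lower, with a median of -1.85. The 42 higher regions included 41 of 170 bp or less. As the rule used the RelBko library, these counts describe the residual regions and nothing is read from them.

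As most RelBko values lay close above the threshold, the share kept at 0 h followed the WT signal by construction, and the groups it forms are described by the libraries of 1 h. Under 10% was kept at 893 regions, whose median RelB signal at 1 h was 3.47 RPKM in RelBko and 78.0 RPKM in WT, and 48.2% of them lay between genes. From 10 to 25% was kept at 3313 regions (3.02 RPKM in RelBko and 45.2 RPKM in WT at 1 h), and from 25 to 50% at 2364 regions (2.68 RPKM in RelBko, 21.5 RPKM in WT), of which 57.5% were promoters. From 50 to 100% was kept at 762 regions (2.11 RPKM in RelBko, 11.9 RPKM in WT), 65.9% of them promoters. At 121 regions RelBko was at or above WT at 0 h, with a median of 4.14 RPKM in WT at 1 h, and 108 of these were 170 bp long or less.

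The lowest shares belonged to regions with very high WT RelB signal. At Nup85, a nuclear pore gene, a region in an exon had 5.32 RPKM in RelBko and 181 RPKM in WT at 0 h, or 2.95% (interval 2.01 to 4.17%), and 4.03 RPKM in RelBko and 142 RPKM in WT at 1 h, while RelA gave 44.1 RPKM in RelBko and 49.4 RPKM in WT. Map3k7cl, Mir7661 and Sbno2 (a transcriptional coregulator in macrophages) kept 3.27, 3.34 and 3.45%. Of these, the region near Sbno2 had the highest WT value, 284 RPKM, beside 9.79 RPKM in RelBko. All 4 had less RelA than RelB signal in the WT libraries of 1 h. After Mybpc3, the highest shares, near Lgalsl, Endou, Cldn22 and Sh3tc2, rested on 15 or 16 reads in RelBko and 1 or 2 reads in WT in regions of 170 bp, too few reads for a share to be read.

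At 1 h of LPS, in libraries the rule did not use, the residual regions kept a median of 8.19% of the WT RelB signal (quartiles 5.60 and 12.7%) and the other regions 16.2%. Lower by 2-fold or more in RelBko were 7381 of 7410 compared regions and higher were 6, beside 95.9% lower and 0.128% higher among all 76583 compared regions. The median log2 ratio was -3.39, a 10.5-fold difference, beside -2.47 over all compared regions. The kept share depended on scaling and background: it was 13.2% when the libraries were scaled on regions without enrichment and 3.95% when the input was subtracted from both genotypes.

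Because residual regions were strong in WT, they were set beside other regions of like WT signal at 1 h. At 20 to 40 RPKM in WT, 2462 residual regions had a median of 2.68 RPKM in RelBko and kept 9.31%, whereas 8296 other regions had 1.79 RPKM and kept 6.59%. At 80 RPKM or more, 726 residual regions had 4.54 RPKM in RelBko and kept 4.58%, and 154 other regions had 2.91 RPKM and kept 3.11%. In each of the 6 ranges of WT signal the residual regions kept a larger median share, the residual and other medians running from 48.6 and 30.7% under 5 RPKM to the values above. The input was also higher in residual than in other regions in each range (1.37 RPKM in residual and 1.12 RPKM in other regions at 20 to 40 RPKM, and 1.55 RPKM in residual and 1.30 RPKM in other regions at 80 RPKM or more), and its part in the difference was not tested.

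**Figure D3:**
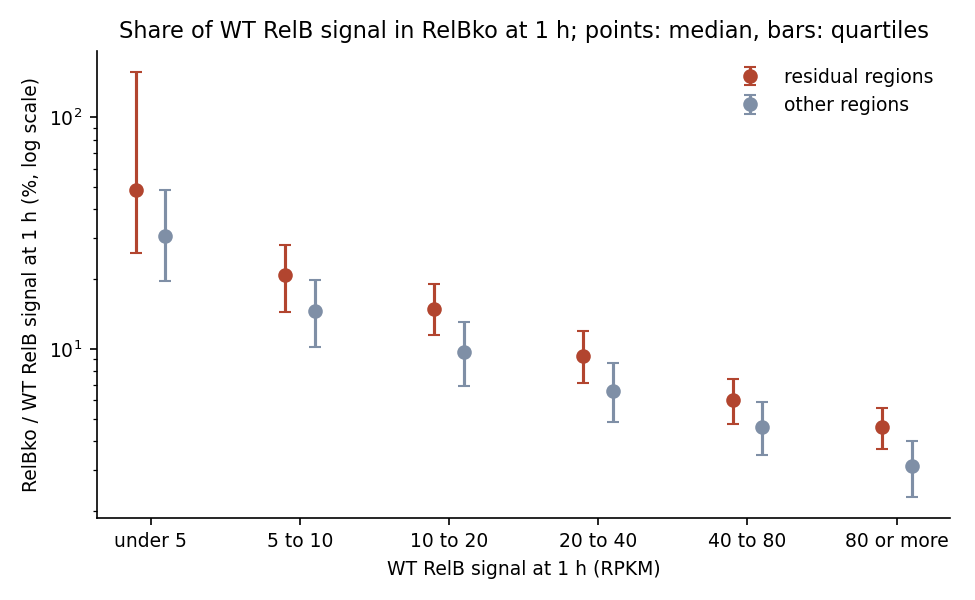
Median share of the WT RelB signal found in RelBko cells at 1 h (percent, log axis) for residual and other regions, by WT RelB signal at 1 h, with bars for the quartiles over regions. The share falls as WT signal increases in both sets, in part by construction, as the WT signal is the divisor of the share. The residual regions lie above the others in all 6 ranges, with 4.58% against 3.11% at 80 RPKM or more.

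Within the RelBko cells, RelB antibody signal at 1 h was below that at 0 h in nearly all residual regions. By 2-fold or more, 4475 of 7453 were lower and 3 higher at 1 h, with a median log2 ratio of -1.10, beside 44.1% lower and 0.863% higher of all 23402 compared regions and their median of -0.93. The 0 h library chose the regions, so a part of this difference is set by the choice, and nothing is read from it. Scaled on regions without enrichment, 2655 were lower. In WT cells, 96 of 7413 residual regions were higher and 30 lower at 1 h than at 0 h, a smaller share higher than among all compared regions (11% higher, 1.68% lower), and the median log2 ratio was 0.11 at residual regions and 0.14 over all. Under scaling on regions without enrichment the WT counts were 62 higher and 64 lower. These comparisons share libraries with those between the genotypes.

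How many residual regions had more RelBko RelB signal at 1 h than at 0 h is in part set by the choice on the 0 h library. No such count was made over all regions. At 34 residual regions this signal was higher at 1 h than at 0 h, and their median input was 1.85 RPKM. The 5 of highest RelBko signal at 1 h were all of this kind: the Rn45s region and regions near Pex2, Filip1l, Cdk8 and Txndc11, genes of peroxisome assembly, of an actin-associated protein, of a kinase of the Mediator complex and of a thioredoxin-related protein. Near Pex2 the RelB antibody gave 32.8 RPKM in RelBko and 51.2 RPKM in WT at 1 h, and 17.4 RPKM in RelBko and 42.4 RPKM in WT at 0 h, with 7.63 RPKM in the input. At Filip1l the values at 1 h were 29.7 RPKM in RelBko and 28.8 RPKM in WT. The inputs of the 5 regions lay between 5.61 and 18.0 RPKM, all far above the residual median of 1.40 RPKM.

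Promoters made up 33.0% of the residual regions (2456; Wilson 95% interval 31.9 to 34.0%) and 11.0% of all regions, and 5' UTRs made up 2.39% of the residual and 0.951% of all regions. Introns (32.5% of residual, 44.1% of all regions) and intergenic regions (28.0% of residual, 39.2% of all regions) were less represented, and exons equally so (1.74% of residual, 1.76% of all regions). Read the other way, 23.9% of all promoter regions, 5.87% of introns and 5.68% of intergenic regions were residual. The distance to a start followed the same order, with 21.7% of regions within 1 kb residual, 7.39% at 1 to 10 kb, 5.06% at 10 to 100 kb and 3.20% beyond 100 kb.

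Residual promoters differed from residual distal regions in how much WT signal stood beside them. Their median RelB signal at 0 h was 6.46 RPKM in RelBko and 18.5 RPKM in WT, so that 36.5% was kept, whereas residual introns had 6.31 RPKM in RelBko and 37.1 RPKM in WT (17.6% kept) and intergenic ones 6.39 RPKM in RelBko and 44.3 RPKM in WT (15.3% kept). At 1 h the kept shares were 12.4% in promoters, 6.91% in introns and 6.24% in intergenic regions. The median RelBko RelB signals at 1 h were 2.73, 2.89 and 2.94 RPKM in that order, beside 21.1, 41.8 and 47.3 RPKM in WT. The classes thus differed at 1 h in WT signal more than in RelBko signal. Enriched in RelBko at 1 h were 30.8% of residual promoters, 39.9% of residual introns and 40.6% of residual intergenic regions. At like WT signal, promoters were residual more often than introns and intergenic regions, the classes compared in this way: at 10 to 20 RPKM in WT at 0 h, 35.7% of promoters, 5.04% of introns and 3.12% of intergenic regions were residual, and at 20 to 40 RPKM the shares were 62.0, 22.5 and 19.2%. At 80 RPKM or more, 84.8, 73.2 and 78.6% were residual, so that the classes drew together among the strongest regions. Promoters had a slightly higher median input than introns among the residual regions (1.49 RPKM in promoters, 1.34 RPKM in introns), whose part was not tested.

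**Figure D4:**
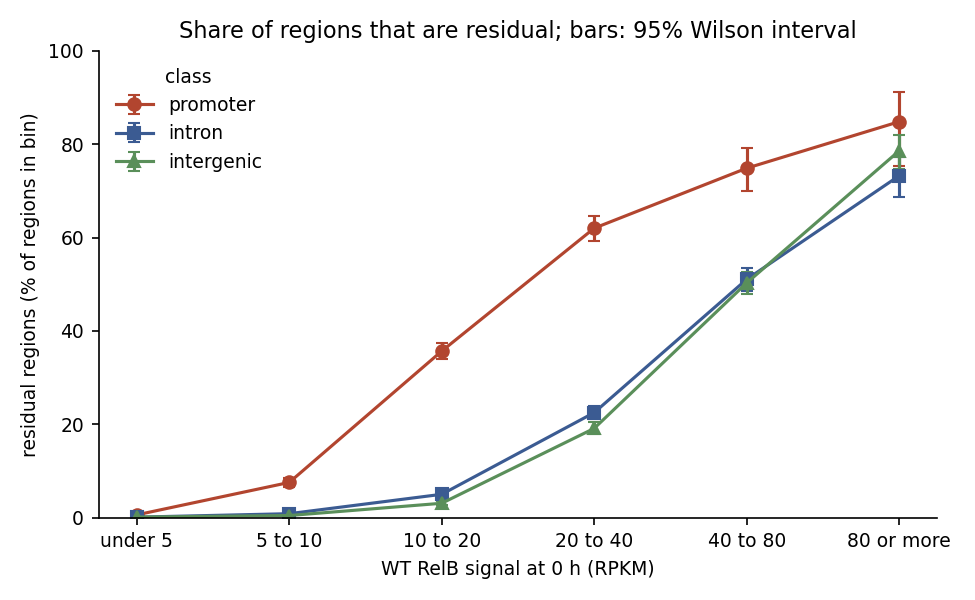
Share of regions that were residual (percent) by WT RelB signal at 0 h in promoters, introns and intergenic regions, with Wilson 95% intervals. The intervals treat regions as independent, though many residual regions lie near each other, and hold neither read error nor spread between libraries. At 10 to 20 RPKM 35.7% of promoters and 5.04% of introns were residual, and at 80 RPKM or more 84.8% and 73.2%.

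Region length and position also set residual regions apart. Regions of 170 bp or less were 13.8% of residual regions (1027) and 2.24% of all regions, and 49.0% of these short regions were residual, against 7.02% of longer ones. A short residual region held a median of 19 reads in RelBko at 0 h, against 43 reads in longer ones. The shares kept at 0 h were 40.6% in short and 20.0% in longer ones. The medians were 6.39 and 6.35 RPKM in RelBko, whose values chose the regions, beside 17.1 and 33.3 RPKM in WT, so nothing is read from these shares. At 1 h RelBko RelB gave 2.41 RPKM in short and 2.88 RPKM in longer residual regions, beside 18.6 and 36.7 RPKM in WT. Another residual region lay within 10 kb of 41.0% of residual regions, whereas 11.7% of other regions had a residual one that near. On the X chromosome 34 of 2399 regions were residual (1.42%), against 8.13% on the autosomes, where the shares ran between 6.03% and 10.2%. Over all regions the median input was 0.724 RPKM on X and 0.914 RPKM on the autosomes, and the median WT RelB signal at 0 h was 3.94 RPKM on X and 5.53 RPKM on the autosomes.

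RelA signal differed by less than 2-fold between the genotypes at nearly all residual regions. Of 7418 regions compared, 14 were higher and 7 lower by 2-fold or more in RelBko (0.189 and 0.0944%), beside 1.3% higher and 4.94% lower among all 80885 compared regions. The median log2 ratio of RelA, RelBko over WT, was 0.06 at residual regions and -0.06 over all. It was 0.22 at residual regions when scaled on regions without enrichment, where 31 were higher and 5 lower. Set beside other regions of like WT RelA signal, the residual regions differed by range. These ranges hold all 7453 residual regions without the enrichment filter, with 14 higher and 8 lower. At 5 to 10 RPKM in WT, 5 of 251 residual regions (1.99%) were higher and 4 (1.59%) lower in RelBko. Of 20402 other regions there, 0.446% were higher and 5.31% lower. Median log2 ratios were 0.28 at residual and -0.11 at other regions. At 10 to 20 RPKM, 5 of 1439 residual regions (0.347%) were higher and 3 (0.208%) lower. Of other regions in that range, 0.157% were higher and 2.41% lower (medians 0.18 at residual and -0.04 at other regions). Under 5 RPKM, 4 of 63 residual regions (6.35%) were higher and 1 lower. Of 41659 other regions there, 1105 (2.65%) were higher and 3331 lower. At 20 to 40 RPKM none of 2896 residual regions passed 2-fold in either direction, against 2 higher and 82 lower of 7118 other regions. Median log2 ratios there were 0.07 at residual and -0.05 at other regions. At 40 to 80 RPKM none of 2411 residual regions passed 2-fold, against 8 lower of 1080 other regions (medians 0.005 and -0.06). At 80 RPKM or more none of 393 residual regions did, against 1 higher of 24 other regions (medians -0.05 and -0.08). Without regions of 170 bp or less, 4 residual regions were higher and none lower.

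Those 4 were the promoters of Pgk1, a glycolytic enzyme, and Dynlt1b, a dynein light chain, and intergenic regions nearest to 4933406G16Rik and 6820431F20Rik. The Pgk1 region (chrX:103382065-103382418) had 44.0 RPKM in RelBko and 14.9 RPKM in WT with RelA, but 9.69 RPKM in RelBko and 18.0 RPKM in WT with RelB at 0 h, and 3.19 RPKM in RelBko and 16.3 RPKM in WT at 1 h. It was thus the one of the 4 with the largest RelA ratio (log2 1.53), and an input of RelBko cells was not analysed here. Among short regions, the highest ratios belonged to H2-M5 (4.17 RPKM in RelBko, 1.00 RPKM in WT), Eif4a1, a helicase of translation initiation (15.2 RPKM in RelBko, 5.02 RPKM in WT), Gm15319 (52.4 RPKM in RelBko, 19.3 RPKM in WT) and Epm2aip1 (7.86 RPKM in RelBko, 2.68 RPKM in WT). The lowest were at Hdgf (5.40 RPKM in RelBko, 15.4 RPKM in WT), Csf1, the macrophage colony-stimulating factor (3.93 RPKM in RelBko, 10.7 RPKM in WT), Mmp23, Fbxw4 and Csnk1d, all in regions of 170 bp.

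**Figure D5:**
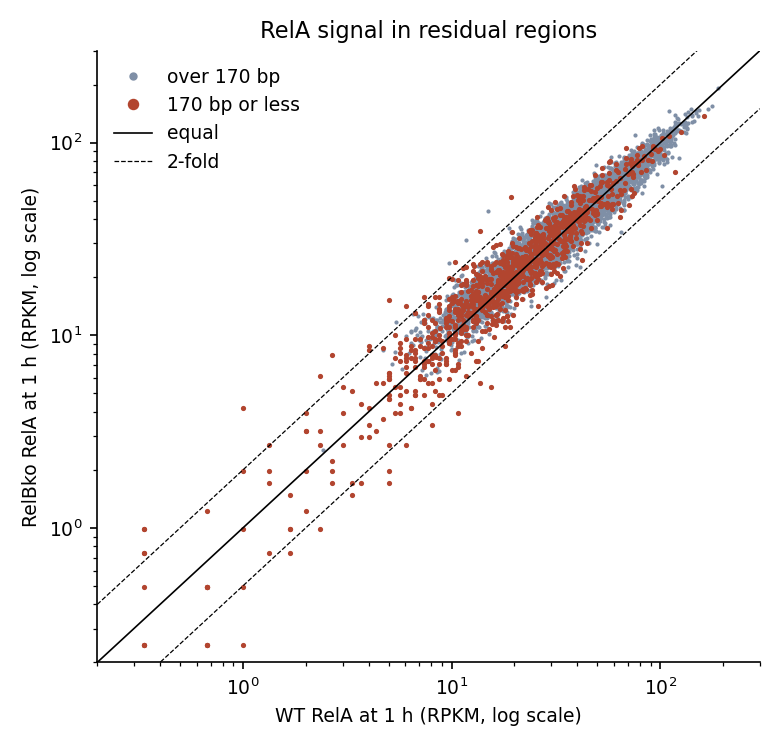
RelA signal at 1 h in RelBko cells against WT cells for the residual regions (RPKM on log axes), with a line of equality and dashed lines at 2-fold without the added 0.5 RPKM. The points follow the line of equality, and 10 of the 14 regions called higher and all 7 called lower on the scale with 0.5 RPKM added were 170 bp long or less.

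The rank order of RelBko RelB signal was set beside that of the other libraries, across the 7453 residual regions and across all regions. Spearman's rho of the RelBko RelB signal at 0 h was 0.49 with RelBko RelA, 0.46 with WT RelA, 0.38 with WT RelB at 0 h and 0.20 with the input over the residual regions, and 0.73, 0.71, 0.70 and 0.44 over all regions. For RelBko RelB at 1 h it was 0.66 with RelBko RelA, 0.62 with WT RelA, 0.56 with WT RelB at 1 h and 0.14 with the input over the residual regions, and 0.67, 0.65, 0.62 and 0.37 over all regions. The 2 RelBko RelB libraries correlated at 0.48, the 2 RelA libraries at 0.96 and the 2 WT RelB libraries at 0.94 over the residual regions. These are descriptions across regions, which are not replicates. The RelBko values at 0 h chose the residual regions, so that their range is cut off by the threshold, and the RelBko RelB libraries have the fewest reads per region among the ChIP libraries.

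Residual regions were most numerous at 8 genes. Residual were 13 of 56 regions assigned to 4930459C07Rik, 13 of 81 assigned to Gm17746, 11 of 25 at 0610040F04Rik, 11 of 38 at Rbpj, 10 of 27 at D330050G23Rik, 10 of 55 at Pde4b, 9 of 33 at Gse1 and 9 of 51 at Rftn1. Rbpj is the DNA-binding partner of Notch, Pde4b breaks down cyclic AMP, Gse1 is part of a histone demethylase complex and Rftn1 is a lipid raft protein. Their strongest residual regions reached 9.76 to 13.5 RPKM in RelBko at 0 h, and the medians of the share kept at 0 h lay between 10.7 and 19.6% per gene. The 8 genes had 0 to 3 residual promoter regions each, and at Gse1 the strongest of the 9 was a promoter, 102 bp from the start.

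Gene lists were read beside all genes, of which 4697 of 18215 with a region within 100 kb of the start (25.8%) had a residual one. All 5 NF-kB subunit genes and all 13 genes of IkB inhibitors and feedback had one, as did 10 of 13 genes of TRAF adaptors, cIAP ligases and NF-kB kinases. These genes also had many regions, of which 19.4, 25.4 and 23.1% were residual, beside 8.58% of the regions of all genes. Their residual regions had median WT RelB signals at 0 h of 64.5, 50.8 and 39.8 RPKM, beside 29.5 RPKM over all genes. Residual were 0.197% of all regions under 5 RPKM in WT at 0 h and 77.2% of those at 80 RPKM or more. No list was compared with other genes at like WT signal, so the part of WT signal in these shares was not tested. At the Nfkb2 promoter the RelB antibody gave 14.3 RPKM in RelBko and 105 RPKM in WT at 0 h, and at that of Rel, a further subunit, 13.7 RPKM in RelBko and 99.6 RPKM in WT. Nfkbid, a nuclear IkB protein, and Tnfaip3, the A20 deubiquitinase that ends NF-kB signalling, kept 11.5 and 7.90% of the WT signal, and Birc3, a ubiquitin ligase of the pathway, 5.66%. Traf3, which restrains noncanonical signalling, kept 4.29% (10.5 RPKM in RelBko, 244 RPKM in WT).

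Relb was the nearest gene of 5 regions, 3 of them residual. Its promoter region (chr7:20214655-20215034) had 11.9 RPKM in RelBko and 104 RPKM in WT with RelB at 0 h, 4.18 RPKM in RelBko and 49.3 RPKM in WT at 1 h, and 70.6 RPKM in RelBko and 89.0 RPKM in WT with RelA. Regions nearest to Relb thus held reads in RelBko cells, 34.6 to 70.6 RPKM with RelA over the 3 residual ones. The lowest value was that of a region 10180 bp upstream of the Relb start and classed as intron, which may lie in another gene. These regions do not show where the gene was altered and check no deletion.

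Of 36 genes of inflammatory cytokines and chemokines, 23 had a residual region (63.9%), beside 25.8% of all genes. The counts were 21 of 27 dendritic cell maturation genes (77.8%) and 25 of 28 immediate early genes (89.3%). These genes had many regions (277, 294 and 285 in that order), of which 17.3, 20.7 and 23.9% were residual, beside 8.58% of the regions of all genes. Their residual regions had median WT RelB signals at 0 h of 48.2, 54.7 and 42.9 RPKM, beside 29.5 RPKM over all genes. Upstream of Il1a, which encodes interleukin-1 alpha, the RelB antibody gave 14.6 RPKM in RelBko and 149 RPKM in WT at 0 h. Cxcl16 and Ccl22, chemokines made by dendritic cells, kept 5.24 and 11.6%. Among maturation genes, Cd83 and Ccr7, a surface marker of mature dendritic cells and their homing receptor, had about the same RelBko signal but differed in the rest. The Cd83 promoter had 14.8 RPKM in RelBko and 38.9 RPKM in WT with RelB at 0 h and 104 RPKM in RelBko and 118 RPKM in WT with RelA, whereas the Ccr7 region had 14.6 RPKM in RelBko and 149 RPKM in WT with RelB and 55.1 RPKM in RelBko and 62.0 RPKM in WT with RelA. Cd83 thus kept 38.0% (interval 30.3 to 47.4%) and Ccr7 9.78% (7.90 to 12.0%).

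Immediate early genes answer stimuli without new protein synthesis. The Nr4a3, Ier3 and Zfp36 regions (a nuclear receptor, a survival factor and a protein that destabilises messenger RNA) had 15.7, 15.2 and 14.5 RPKM in RelBko and 73.7, 80.6 and 77.0 RPKM in WT at 0 h, keeping 21.3, 18.8 and 18.8%. Among 26 lineage transcription factors 19 had a residual region (73.1%, beside 25.8% of all genes). Of their 361 regions 16.1% were residual, beside 8.58% of the regions of all genes. The strongest were those of Etv6, Runx3 (16.7 RPKM in RelBko, 130 RPKM in WT) and Zbtb46, a factor of classical dendritic cells (14.5 RPKM in RelBko, 45.3 RPKM in WT). All of the dendritic cell markers Zbtb46, Cd74, Cd86, Itgax, Flt3 and H2-Ab1 had a residual region, beside 25.8% of all genes. The strongest region of each marker had 6.86 to 14.5 RPKM in RelBko at 0 h. Neither the number of regions per marker nor their WT signal was taken into account. Binding at these genes is no measure of their expression.

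Lists outside the NF-kB pathway differed widely. Interferon and interferon-stimulated genes had a residual region in 6 of 31 cases (19.4% of genes, 10.9% of regions), among them Socs1 and Socs3, inhibitors of cytokine receptors, which kept 17.2 and 29.5% at 0 h. Cytosolic ribosomal protein genes had one in 13 of 56 cases (23.2% of genes, 9.15% of regions) and replication-dependent histone genes in 2 of 21 (9.52% of genes, 5.13% of regions). The interferon and ribosomal shares lay near those of all genes, 25.8% of genes and 8.58% of regions. Highly transcribed and housekeeping genes, with one in 22 of 31 cases (71.0%), lay above both, with 24.8% of their regions residual, among them those of Malat1, an abundant nuclear RNA (15.8 RPKM in RelBko and 34.2 RPKM in WT at 0 h), and Sqstm1, an autophagy receptor (10.5 RPKM in RelBko, 74.9 RPKM in WT). The 14 residual ribosomal protein regions kept a median of 43.3% and the 13 residual regions of the NF-kB subunits 13.7% at 0 h. Their median RelB signal at 0 h was 6.30 and 8.01 RPKM in RelBko, beside 15.0 and 64.5 RPKM in WT. As the RelBko values of 0 h chose these regions, nothing is read from the shares at 0 h. At 1 h the median shares were 18.5% and 7.92%, with 2.94 and 3.11 RPKM in RelBko beside 13.3 and 51.4 RPKM in WT.

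The lists of genes of other blood lineages were small. Of 11 neutrophil genes 1 had a residual region (9.09%; Ltf, lactoferrin, 5.14 RPKM in RelBko and 13.3 RPKM in WT), of 9 B cell genes 1 (11.1%; Blnk, an adaptor of the B cell receptor, 10.2 RPKM in RelBko and 125 RPKM in WT), of 11 T and NK cell genes 3 (27.3%, close to the 25.8% of all genes; Klrb1c, Cd3d and Prf1) and of 7 erythroid and mast cell genes none. Those 4 lists held 25 to 60 regions each, of which 0 to 5.56% were residual. Such counts depend on how many regions a gene has and on their WT signal, and no list was tested against others.

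The annotated promoter windows of genes with a residual promoter region were rich in GC. Of 2301 genes with a residual promoter region 1901 (82.6%) were found in the RefSeq promoter table, and of 9256 genes with any promoter region 7448 (80.5%). The median GC content was 66.0% for residual promoter genes, 61.7% for all genes with a promoter region and 52.7% for all 27025 RefSeq genes, and the ratio of observed to expected CpG was 0.850, 0.780 and 0.389 in that order. At least 1 GC box (GGGCGG, either strand) was found in 77.8% of residual promoters, 66.6% of those with any promoter region and 35.9% of all.

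The kB motif was found in 8.26% of the residual promoters (interval 7.10 to 9.58%), in 7.25% of those of all genes with a promoter region (6.68 to 7.86%) and in 5.52% of all promoters. The first set is part of the second, and residual promoters were not compared with the rest alone. The PU.1 motif GAGGAAGT was in 3.73, 3.64 and 3.28% in the same order, the AP-1 motif TGANTCA in 4.47, 5.67 and 7.93%, and the NFY motif CCAAT in 34.4, 37.3 and 37.9%, on either strand. The windows are those of annotated starts, not of the regions themselves, and a match describes letters, not a bound site.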

How the data were processed

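The series measured chromatin immunoprecipitation with sequencing in 7 libraries of mouse BMDCs, 1 per group, from cells fixed in DSG (1 mM) and PFA (1%), per the labels' protocols. RPKM values over 93611 regions, with mm9 coordinates, distance to a start, nearest gene and shortened annotation class, were deposited by the authors, per the file headers. The submitters' processing notes name HISAT2, HOMER and bedtools; neither their roles and versions nor the calling of regions is given in the sources used here. The treatment text names LPS with a reagent named for a CpG oligonucleotide, and the protocol text names a RelA antibody where the sample labels name RelA or RelB.

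RPKM multiplied by region length gave whole reads for 100% of values within 0.01 read; no value lay under 1 read, so a read may have been added to each. Regions were counted with coordinates from 1. Comparisons used log2(RPKM + 0.5), which understates changes of weak regions, over regions enriched in at least 1 of both libraries, and a 2-fold call. Kept shares are ratios of RPKM; intervals of read ratios are exact (Clopper-Pearson), those of shares Wilson, at 95%, and without molecular identifiers, reads need not be separate molecules. A simulation with known answers was used to check the recovery of reads, the 2-fold call and the exact intervals of read ratios. The other steps were not simulated. Regions named were the highest and lowest by signal, kept share and RelA ratio, those beside the thresholds, and the top 3 of each of 15 gene lists (354 genes, 325 matched); regions called over 170 bp, the Relb regions and the dendritic cell markers were added. Some regions this rule names are not reported here. The residual regions and the lists were chosen with earlier results of these data known. Alternatives were other pseudocounts, scalings, thresholds, no filter, input subtraction and 1 read taken off. Sequences came from RefSeq by symbol, without converting coordinates. Python 3.11.15, pandas 2.3.3, numpy 2.4.6, scipy 1.17.1 and matplotlib 3.10.9 were used.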

Additional observations from a re-analysis of the deposited data

Results flagged for a closer look

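Between 1 h and 0 h of LPS, RelB antibody signal in the residual regions differed in opposite directions in the genotypes. The median log2 ratio of 1 h over 0 h was -1.10 in RelBko cells and 0.11 in WT cells, with 1 library at each time. The difference was not tested, the RelBko library of 0 h chose the regions, and the WT median turned to -0.03 when scaled on regions without enrichment.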

How the results depend on the processing

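Of 67 alternatives to the 9 main results, 34 were labelled as leaving the value within a range, 31 as moving it and 2 as turning its direction. The range was wider for counts of regions than for kept shares, so the tally mixes unlike criteria. For RelB between genotypes at 0 h, 5482 regions called with scaling on unenriched regions were labelled within range of 6507. A kept share of 21.2% with 1 read taken off was labelled as moved from 21.8%. A threshold of 10 RPKM left 590 residual regions and 4-fold over input left 3160. The kept share at 0 h (21.8%) was 21.2% with 1 read taken off, 18.1% at 10 RPKM, 20.0% at 4-fold, 29.2% with scaling on unenriched regions, 17.8% with the input subtracted and 20.0% without regions of 170 bp or less, a setting chosen after the data were seen. At 1 h (8.19%) the same settings gave 7.60, 6.85, 7.44, 13.2, 3.95 and 7.71%. At 10 RPKM and at 4-fold, with fewer regions by construction, the regions called were 554 and 2821 for RelB RelBko against WT at 0 h (6507), 584 and 3139 at 1 h (7387), 2 and 7 for RelA (21), 8 and 58 for WT 1 h against 0 h (126), and 447 and 2033 for RelBko 1 h against 0 h (4478). With a median ratio of 1 over compared regions, 2409 (704 higher, 1705 lower), 3537 (89 higher, 3448 lower) and 384 were called for RelB between genotypes at 0 h and 1 h and for RelBko over time. WT over time again had 126 calls in all, but 60 higher and 66 lower in place of 96 and 30, and with scaling on unenriched regions 62 higher and 64 lower. That scaling called 36 regions for RelA and 2665 for RelBko over time, and 4 were called for RelA without short regions. Promoters were 29.5% of the residual regions at 4-fold. The cause was not tested where the construction does not show it. No paired analysis was possible because each group held 1 library. Short residual regions held few reads (median 19 in RelBko at 0 h), which limits single ratios there.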
